A study of Mus musculus with 2 samples.

Results

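The endothelial cells of the embryonic lower jaw region, the mandibular prominence, at mouse embryonic day 11.5 (E11.5) are the 162 cells that the authors' deposited lineage column names Endothelial, out of 7099 cells in that library and 13417 in the series. They make up the whole of the authors' cluster 13 and 2.28% of the E11.5 cells (95% interval 1.95 to 2.66%, Clopper-Pearson). The prominence, from which the jaw and part of the tongue grow, came from wild-type CD1 mouse embryos, and the E11.5 tissue includes the tongue bud. It was minced, digested in the cold with a protease of Bacillus licheniformis at 3 mg/ml, and profiled by droplet-based 10x RNA sequencing in 1 library. The only other group used here is the 137 endothelial cells of a second library, from wild-type CD1 embryos at embryonic day 13.5 (E13.5), digested at 5 mg/ml. How many embryos were pooled is not given in the sources used here.

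Endothelial cells line every blood and lymph vessel. They hold together through VE-cadherin and claudin junctions, respond to VEGF through VEGF receptors and to angiopoietins through TIE receptors, and take arterial, venous or lymphatic character under Notch, SOXF and COUP-TFII control. Embryonic vessels also carry blood cells of the yolk sac and fetal liver, among them macrophages and megakaryocytes, the large cells that shed platelets. Digested tissue therefore yields endothelial cells and circulating or resident blood cells side by side.

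The E11.5 library held 49913485 UMIs (unique transcript counts) over 16236 genes and the E13.5 library 67838169 over 17775. The 162 endothelial cells held 1448098 UMIs, with a median of 7715 per cell (2374 to 28991), against a median of 6211 in the other 6937 cells of E11.5. Across the libraries 71 cell barcodes were shared, 2 of them of E11.5 endothelial cells. With 1 library per stage there is no replicate, so no p-value is given, and every interval is a 95% interval that covers counting error only. Levels are CPM, the summed UMIs of a group of cells scaled to 1000000. A gene counted as measured once both groups together held at least 20 of its UMIs, and was called higher or lower at 2-fold or more with an interval that excludes a ratio of 1, which is a rule of size and not a test. Because the authors clustered these cells on their genes, every contrast with other E11.5 cells below is a description.

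The name Endothelial held for most of the cells, but not for all of them. The 3 endothelial markers and the 2 blood markers given with the cells were all higher than in the other E11.5 cells, but in different cells. Cdh5, which encodes VE-cadherin (chr8:104101625-104144511, GRCm38), was at 395 CPM in the endothelium against 1.53 CPM in the other cells. Pecam1, an adhesion molecule of endothelial junctions (chr11:106654217-106750628), was at 253 CPM against 2.21 CPM. Sox17, a SOXF transcription factor of arteries (chr1:4490931-4497354), was at 108 CPM against 0.681 CPM. Pf4, platelet factor 4 (chr5:90772435-90773383), was at 1540 CPM against 7.22 CPM, and C1qa, a chain of complement C1q made by macrophages (chr4:136895917-136898803), was at 73.2 CPM against 0.351 CPM. All 106 C1qa UMIs of the class, and all but 35 of its 2230 Pf4 UMIs, were in 24 cells that are described next. C1qa is 1 of the markers by which those 24 cells were picked, and Pf4 is not. A Cdh5 UMI was found in 127, a Pecam1 UMI in 116 and a Sox17 UMI in 79 of the remaining 138.

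With each cell thinned to 2000 UMIs, which left out no cell, a Cdh5 UMI was found in 47.5% of the endothelial cells (39.6 to 55.5%) and in 0.219% of the erythroid cells, which do not express it and serve as background. Without thinning the shares were 79.0% and 2.19%, at median depths of 7715 and 13137 UMIs. For Sox17 the thinned shares were 21.0% and 0.219%.

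Blood cells were separated from endothelial cells by 12 macrophage and 11 megakaryocyte class markers, with Pf4 kept out because embryonic macrophages also make it. At least 3 UMIs of the macrophage markers were found in 23 of the 162 endothelial-named cells (14.2%, 9.22 to 20.5%), against 1 of the other 6937 cells (0.0144%, 0.000365 to 0.0803%). At least 3 UMIs of the megakaryocyte markers were found in 7 (4.32%, 1.75 to 8.70%), against 1 of 6937. Both limits were passed by 6 cells, which left 24 cells with blood UMIs and 138 without. The counts are a range and not a type, and for the macrophage markers few cells lay near the limit: 129 cells held none, 10 held 1, none held 2 and 2 held 3, and the highest cell held 134. For the megakaryocyte markers 143 cells held none, 11 held 1, and 1 each held 2, 3 and 4 UMIs. With cells thinned to 2000 UMIs, 4 cells in place of 7 reached the megakaryocyte limit.

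The 2 sets hardly overlapped in endothelial RNA. The 25 pan-endothelial genes summed to a median of 1 UMI in the cells with blood UMIs and to a median of 49 UMIs (10 to 151) in the cells without. All 21 endothelial-named cells with fewer than 10 pan-endothelial UMIs held blood UMIs. Mesenchymal cells had a median of 0 and 1 of 5899 reached 10. A single cell held much of both, with 119 pan-endothelial UMIs, 11 megakaryocyte class UMIs and 19 Pf4 UMIs among 17698 UMIs. Scrublet, a doublet score, marked none of the 162 endothelial-named cells. Whether this cell was a doublet was not tested further.

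**Figure D1:**
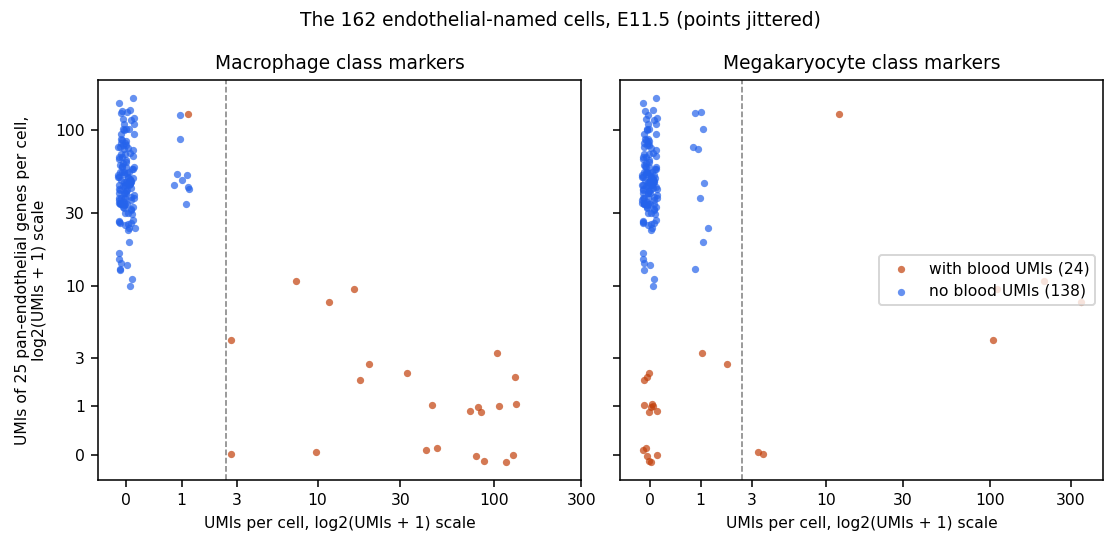
Each point is 1 of the 162 E11.5 endothelial-named cells, with its UMIs of the macrophage class markers (left) or megakaryocyte class markers (right) on the horizontal axis and of 25 pan-endothelial genes on the vertical axis, all on a log2(UMIs + 1) scale. The 24 cells with blood UMIs sit right of the dashed line at 3 UMIs in at least 1 panel and at 0 to 12 pan-endothelial UMIs on the vertical axis, apart from 1 cell at 119.

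The 24 cells were of several kinds by their leading genes. The first 12 held at least 3 UMIs of C1q, the complement starter that tissue macrophages make. C1qa ranged from 1 to 21 UMIs per cell, C1qb from 7 to 30 and C1qc from 5 to 29. Tyrobp and Fcer1g, signalling adaptors of myeloid receptors, ranged from 11 to 28 and from 7 to 27 UMIs. Csf1r, the receptor for the macrophage growth factor CSF1, reached 7 UMIs, Mrc1, the mannose receptor, 15, and Trem2, a lipid-sensing receptor, 6. These cells had 0 to 3 pan-endothelial UMIs and no Cdh5 or Cldn5 UMI. The authors' phase calls placed 6 of them in G1, 5 in S and 1 in G2M.

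A further 4 cells held 325, 402, 664 and 767 UMIs of Pf4. Ppbp, another platelet chemokine, was at 7 to 222 UMIs in them, Gp9 and Gp1bb, subunits of the platelet receptor for von Willebrand factor, at 16 to 38 and 22 to 40, and Itga2b, the platelet integrin alpha chain, at 6 to 17. C1qa, Csf1r and Tyrobp were at 0 in all 4, while Fcer1g, which platelets also use for collagen signalling, was at 3 to 18. These UMIs of Fcer1g put all 4 past the macrophage limit as well. Their pan-endothelial sums were 4 to 12, and all 4 were placed in G1.

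The last 8 cells shared no single leading gene. Mpo and Prtn3, granule proteins of neutrophil precursors, both had UMIs in 5 of the 8 cells. They were at 74 and 47 UMIs in 1 cell, and at 1 to 13 and 1 to 8 in the rest of the 5. Cpa3 and Hdc, a mast cell protease and the enzyme that makes histamine, were at 37 and 16 UMIs in another of these 5. That cell also held 34 UMIs of Tyrobp and 13 of Mpo. One more cell held 3 UMIs each of Cpa3, Cd3g and Gata2, and a different one 4 UMIs of Cd3g, a subunit of the T cell receptor complex. A cell with no C1q had 20 Fcer1g and 22 Tyrobp UMIs. No name is given to these cells, which rest on few markers each. Among the other cells of the 8 is the one with 119 pan-endothelial UMIs.

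**Figure D2:**
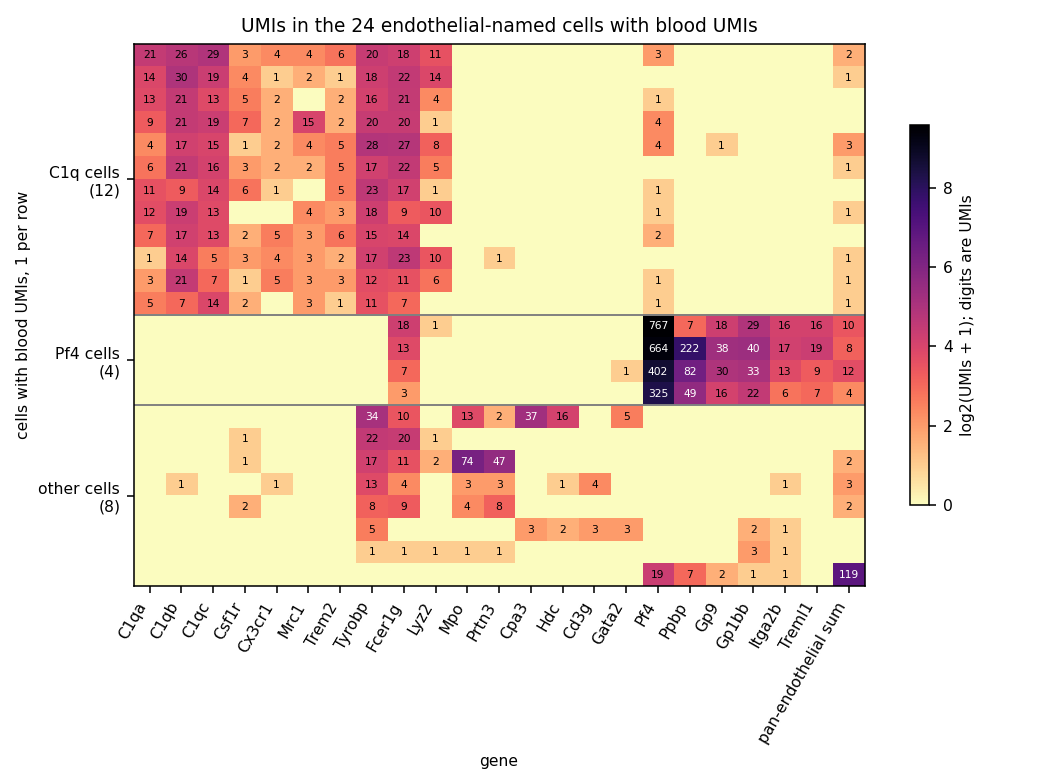
UMIs of blood genes in the 24 endothelial-named cells with blood UMIs, 1 cell per row and 1 gene per column, with the sum of 25 pan-endothelial genes in the last column; colour is log2(UMIs + 1) and digits are UMIs. The 12 C1q cells and the 4 Pf4 cells (325 to 767 Pf4 UMIs) do not share their leading genes, and 8 cells fit neither group.

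Across the endothelial class, 18 of 18 measured macrophage genes and 12 of 13 measured megakaryocyte genes were called higher than in the other cells. Their median log2 ratios were 7.09 and 6.24. Over all 13404 genes measured in this contrast, 12% were called higher and 8.63% lower, and the median log2 ratio was 0.04. Of the 2 lists, 25 macrophage and 17 megakaryocyte genes were in the E11.5 data, and those not measured fell short of 20 UMIs. Without the cells holding blood UMIs, 10 genes of each list were measured. A gene that reaches 20 UMIs only through those cells is high in the class by selection. The shares called higher in the whole class are therefore a description and not a test. In the 138 cells without blood UMIs, 2 of 10 measured macrophage genes and 3 of 10 measured megakaryocyte genes were called higher and none lower, where 10.5% of 13328 genes were called higher and 8.21% lower. In each list 5 of the 10 were class markers, which the limit of 3 UMIs keeps low in these 138 cells. The macrophage genes left were Laptm5, a lysosomal membrane protein, at 18.9 CPM against 0.413 CPM, and Lcp1, an actin-bundling protein of leukocytes, at 65.0 CPM against 0.867 CPM in the other cells. Lcp1 UMIs were found in 53 of the 138 cells. The megakaryocyte genes left were Clec1b, the platelet receptor for podoplanin, at 50.2 CPM against 0.309 CPM, Pf4 at 28.8 CPM against 7.22 CPM, and Itga2b, at 4.94 CPM. Of the 35 Pf4 UMIs, 16 were in 1 cell that had 53 pan-endothelial UMIs and no megakaryocyte class UMI.

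Csf1r, Mrc1, Trem2 and Lyz2 had no UMI in the 138 cells, and neither had Ppbp, Treml1 or Itgb3. Of these, Csf1r, Ppbp and Treml1 are class markers, so the limit that set the 138 cells apart keeps them low. In mesenchyme the 12 macrophage class markers were at 0 in 5697 of 5899 cells. The part of free RNA in the values left was not tested.

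The 12 C1q cells were set beside the 73 cells of the E13.5 cluster that the authors named Mast Cells, whose leading genes are those of macrophages. C1qa was at 1092 CPM in the E11.5 cells and 948 CPM at E13.5, a ratio of 1.15 (0.935 to 1.41). The 12 cells were picked by their C1q UMIs and the 73 by their cluster, so this ratio does not compare C1q levels between the stages. Csf1r was at 381 and 368 CPM, and Mrc1 at 443 and 570 CPM. Trem2 was called higher at E11.5, at 422 against 208 CPM (2.03-fold, 1.43 to 2.84). F13a1, the A chain of coagulation factor XIII, was called lower, at 185 against 455 CPM (0.407-fold, 0.240 to 0.650). Pf4 was also called lower, at 185 CPM against 2101 CPM (0.0883-fold, 0.0522 to 0.140). Stage, library and protease concentration cannot be told apart in these ratios.

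Of the 25 pan-endothelial genes, all 25 were called higher in the endothelium than in the other cells, by 13.8- to 304-fold, with a median log2 ratio of 7.32. Cldn5, the tight junction claudin of endothelium, was at 426 CPM against 1.40 CPM (304-fold, 236 to 396). Emcn, the sialomucin endomucin, was at 424 CPM against 2.39 CPM. Plvap, which forms the diaphragms of fenestrae and caveolae, was at 280 CPM against 1.75 CPM. The smallest ratios were those of Clec14a, Calcrl, Ramp2 and Egfl7. Ramp2, a subunit of the adrenomedullin receptor, was at 355 CPM against 24.6 CPM, and Egfl7, a secreted vessel protein, at 705 CPM against 22.3 CPM. Calcrl, the partner of Ramp2, was at 13.8 CPM against 0.970 CPM. In the 138 cells without blood UMIs Cldn5 was at 498 CPM and Egfl7 at 823 CPM.

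**Figure D3:**
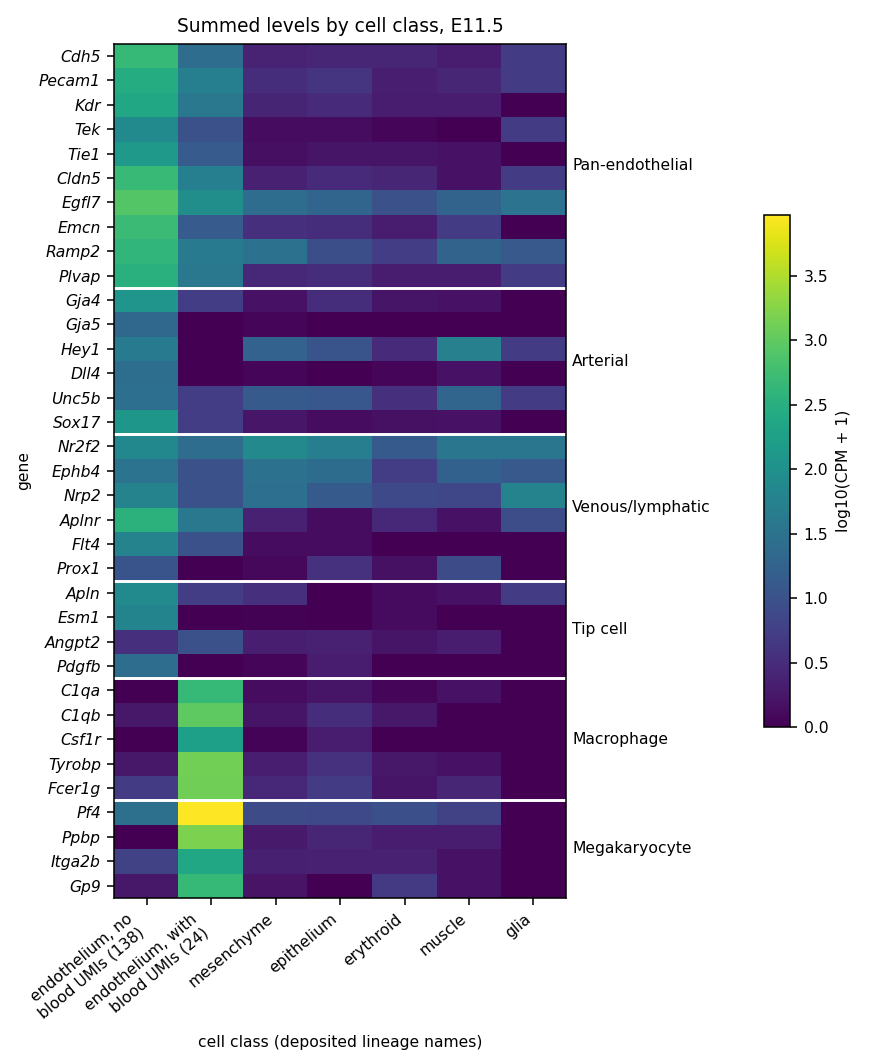
Summed level of each gene, as log10(CPM + 1), in the 138 endothelial cells without blood UMIs, the 24 with blood UMIs and the 5 other E11.5 classes. Of the genes plotted, the pan-endothelial ones, and the arterial ones apart from Hey1 (highest in muscle), are highest in the first column, and the macrophage and megakaryocyte genes in the second (C1qa at 454 CPM in the 24 cells and at 0 in the 138), while Nr2f2, Ephb4, Nrp2 and Unc5b are also seen in mesenchyme and other classes.

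All 7 receptors for VEGF and angiopoietin were called higher. Kdr and Flt1, the main VEGF receptors of blood vessels, were at 202 and 92.5 CPM against 1.53 and 0.371 CPM. Tek and Tie1, the TIE receptors, were at 64.2 and 118 CPM against 0.351 and 0.495 CPM. The co-receptor Nrp1 was at 113 CPM against 12.7 CPM, and Nrp2 at 50.4 CPM against 23.4 CPM, and mesenchyme held 15.1 and 27.7 CPM of the pair. Of 18 measured vascular ligands, 5 were called higher and 5 lower. The higher ones were Dll4, Apln, Pdgfb, Adm and Edn1, and the lower ones were Vegfa, Pgf, Cxcl12, Slit2 and Slit3. Vegfa, the main growth factor for vessels, had 1 UMI in the endothelium (0.691 CPM) against 3.98 CPM in the other cells, and Cxcl12, the chemokine for the receptor Cxcr4, was at 13.8 CPM against 52.5 CPM.

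Among 22 measured endothelial transcription factors, 18 were called higher and 0 lower. The SOXF genes were all called higher: Sox7 at 54.6 CPM against 0.248 CPM, Sox17 as given above, and Sox18 at 31.1 CPM against 0.144 CPM. Of the ETS factors, Erg was at 31.1 CPM against 0.763 CPM (40.7-fold), Ets1 at 115 CPM against 4.56 CPM (25.1-fold), and Fli1 at 98.1 CPM against 20.7 CPM (4.73-fold). Etv2, which starts the endothelial programme in the early embryo, had 3 UMIs. Klf2, a factor induced by blood flow, was at 279 CPM against 2.43 CPM. Tal1, Lyl1 and Lmo2, which endothelium shares with blood, were at 12.4, 53.9 and 206 CPM against 5.18, 4.91 and 7.72 CPM, all called higher, and erythroid cells held 38.4, 33.4 and 31.6 CPM of them. Mecom was at 33.8 CPM in the endothelium against 34.0 CPM in the other cells.

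The promoters of the pan-endothelial genes are shown because these genes were high together and ETS proteins are known to act on many endothelial genes. RefSeq promoters (GRCm38.p6) were matched by symbol for 15 of the 25. The 250 bases before the start were searched on both strands for 1 form of the ETS motif, CAGGAA, and 1 form of the GATA motif, AGATAA. Neither contains the other, and shorter or other forms of the 2 motifs were not searched. CAGGAA was found in 11 of the 15 (73.3%), against 25.7% of all 32851 promoters in the table. It was found in 4 of the 13 promoters of endothelial transcription factors in the table (30.8%), 10 of 22 macrophage promoters and 5 of 14 megakaryocyte promoters. AGATAA was found in 1 of the 15, 2 of 22 macrophage and 3 of 14 megakaryocyte promoters, against 9.99% of all. In 8 of the 15 the CAGGAA match nearest the start began within 70 bases of it. These 8 are given with 10 bases on each side, on the gene's strand, with the match in capitals (TTCCTG is CAGGAA read on the other strand).
Adgrf5: tcccagtttcTTCCTGcactgaggaa
Calcrl: ggtgatgtaaCAGGAAgctgtgatgt
Egfl7: tggtctttccTTCCTGaggtgcagct
Emcn: aaaaaagaagTTCCTGtaaggggctg
Myct1: agtataaaagCAGGAAacatgataca
Rasip1: ctcttgccttTTCCTGtcccccaccc
Robo4: gagggccaggCAGGAAgcatccgttt
Tek: acccctattgTTCCTGaaaatgctga

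They lie at chr17:43360365-43360390 (+) for Adgrf5, chr2:84425318-84425343 (-) for Calcrl, chr2:26581025-26581050 (+) for Egfl7, chr3:137341001-137341026 (+) for Emcn, chr10:5593693-5593718 (+) for Myct1, chr7:45627462-45627487 (+) for Rasip1, chr9:37401912-37401937 (+) for Robo4 and chr4:94739220-94739245 (+) for Tek. The 250 bases before the RefSeq start of Tie1 (chr4:118489850-118490099, minus strand; GENCODE places a start inside it, at 118490061), 238-fold higher in the endothelium, held 1 ETS core and no GATA motif, and those of Pf4 (chr5:90772185-90772434, plus strand), the leading gene of the blood cells, held neither. A match is a description of the letters and not a bound site.
Tie1: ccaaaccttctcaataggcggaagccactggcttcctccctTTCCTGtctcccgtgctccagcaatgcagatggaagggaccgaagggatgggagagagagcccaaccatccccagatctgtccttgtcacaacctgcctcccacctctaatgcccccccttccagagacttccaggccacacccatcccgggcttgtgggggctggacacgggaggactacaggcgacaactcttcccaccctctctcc
Pf4: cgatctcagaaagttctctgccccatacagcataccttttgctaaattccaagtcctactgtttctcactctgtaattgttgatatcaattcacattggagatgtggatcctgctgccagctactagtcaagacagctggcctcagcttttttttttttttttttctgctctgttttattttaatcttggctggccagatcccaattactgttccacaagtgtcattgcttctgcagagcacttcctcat

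Arterial genes were high in the class as a whole. Of 12 measured arterial genes 9 were called higher and 1 lower (median log2 ratio 3.21). Gja4 and Gja5, connexins of arterial endothelium, were at 101 and 18.0 CPM against 0.702 and 0.103 CPM. Dll4, the Notch ligand of arteries and sprouting cells, was at 22.1 CPM against 0.165 CPM. Hey1, a Notch target, was at 35.2 CPM against 15.7 CPM (2.25-fold, 1.66 to 2.98), and mesenchyme held 16.6 CPM. Hey2 was called lower, with 4 UMIs (2.76 CPM) against 7.94 CPM. Of the venous genes 4 of 6 were called higher and 0 lower. Aplnr, the apelin receptor of veins and capillaries, was at 306 CPM against 1.30 CPM, and Flt4, the VEGFC receptor, at 51.1 CPM against 0.309 CPM. Nr2f2, which encodes the venous factor COUP-TFII, was at 63.5 CPM against 61.5 CPM, and Ephb4 at 28.3 CPM against 26.5 CPM, and neither was called. Vwf was called higher over all 162 cells (12.7-fold), but had 1 UMI in the 138 cells without blood UMIs, where it was at 0.823 CPM against 0.867 CPM.

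Within the 138 cells without blood UMIs, those with a UMI of Gja4 or Gja5 were compared with the rest. The split was chosen after values were seen, and it is a range: 28 cells held 1 to 32 connexin UMIs, of which 7 held only 1, and 110 held none. The 2 sets had similar depth, with medians of 8010 and 7297 UMIs. Hey1 was at 159 CPM in the connexin-positive cells and 10.5 CPM in the connexin-negative cells (15.2-fold, 7.47 to 34.0), with a UMI in 17 of 28 and 8 of 110 cells. Dll4 was at 81.3 and 11.5 CPM (7.06-fold, 3.26 to 16.2), with a UMI in 12 of 28 and 11 of 110 cells. Unc5b, a netrin receptor, was at 81.3 and 12.5 CPM (6.48-fold, 3.04 to 14.4). Efnb2, the arterial ephrin, was at 65.8 and 18.8 CPM, and Nrp1 at 213 and 98.3 CPM. Leaving out the 2 connexins, 5 of the 7 measured arterial genes were called higher and none lower, where 2.71% of 5913 genes were called higher and 1.98% lower. Sox17 (163 and 119 CPM) and Acvrl1, a BMP receptor (31.0 and 46.0 CPM), were not called.

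Other genes were called in the same direction. The SOXF genes Sox7 and Sox18 were at 159 and 81.3 CPM in the connexin-positive cells against 37.6 and 24.1 CPM in the connexin-negative cells. Mecom was at 112 CPM against 20.9 CPM (5.37-fold), and Klf2 at 588 CPM against 249 CPM. Gja1, a broadly used connexin, was at 166 CPM against 56.5 CPM. Igfbp3, a binding protein for insulin-like growth factors, was at 991 CPM against 285 CPM, and Id1, a target of BMP signals, at 147 CPM against 37.6 CPM. Esm1, a secreted proteoglycan often used as a tip cell marker, was at 166 CPM against 33.5 CPM (4.97-fold, 3.07 to 8.12).

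Apln, the ligand of Aplnr and another tip cell marker, went the other way, at 15.5 CPM in the connexin-positive cells against 93.1 CPM in the connexin-negative cells (0.166-fold, 0.0443 to 0.441). It had a UMI in 3 of 28 and 42 of 110 cells. Nrp2, a co-receptor of veins and lymphatics, was at 19.3 CPM against 69.0 CPM (0.280-fold, 0.0881 to 0.688). Aplnr was at 209 CPM against 397 CPM (0.526-fold), short of the 2-fold limit, but was called lower in 3 of 4 alternatives: with 2 connexin UMIs as the limit (log2 ratio -1.54), in G1 cells alone (-1.51) and without the highest Scrublet (doublet) scores (-1.07). Odc1, the first enzyme of polyamine synthesis, was at 50.3 CPM against 250 CPM, Mcm4 and Mcm5, parts of the replicative helicase, at 34.8 and 50.3 CPM against 113 and 124 CPM, and Ccnd2, cyclin D2, at 27.1 CPM against 82.6 CPM. Of the 12 listed proliferation genes Mcm5 alone was called lower and none higher, and Odc1, Mcm4 and Ccnd2 are outside that list. The authors' phase calls placed 35.7% of the connexin-positive cells (18.6 to 55.9%) and 59.1% of the connexin-negative cells (49.3 to 68.4%) in S or G2M, intervals that overlap. Among cells placed in G1 alone, 5 of the 7 arterial genes were called higher, and Apln (log2 ratio -3.57), Odc1 (-4.54), Mcm4 (-2.22) and Mcm5 (-2.26) lower. Nrp2 (-1.3) and Ccnd2 (-1.26) were not called there, and Ccnd2 was not called without the highest Scrublet scores either (-0.95). Of 7 globin genes 3 were called lower, with Hba-a1 at 1447 CPM against 4069 CPM. A single connexin-negative cell held 5883 globin UMIs, where the median over the 138 cells was 91. Neither the part of that cell nor that of free haemoglobin RNA in these ratios was tested.

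**Figure D4:**
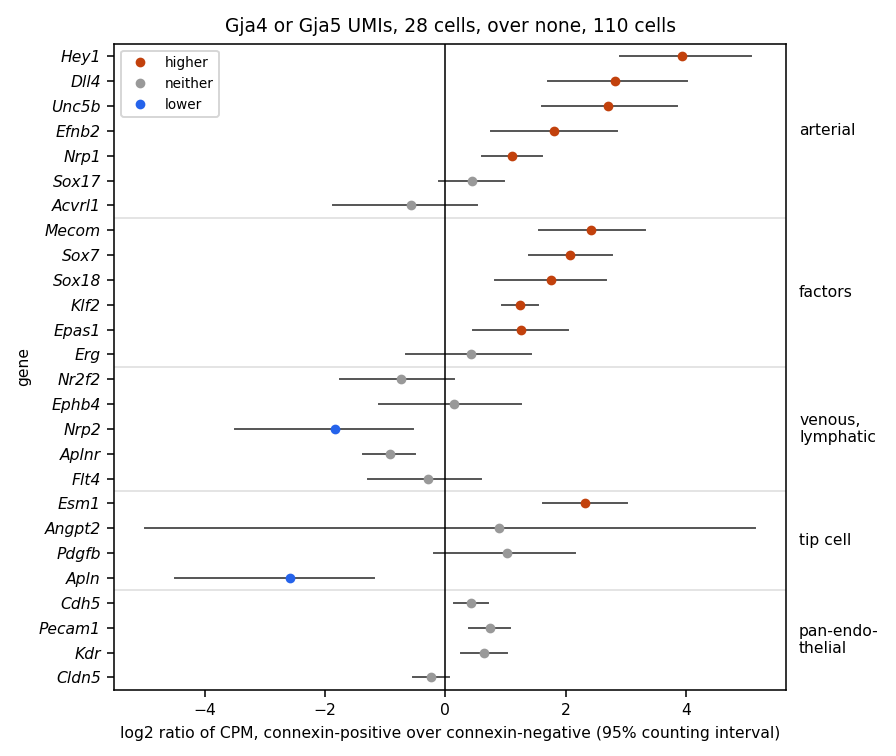
Ratio of CPM (log2, with 95% counting intervals) of the 28 connexin-positive over the 110 connexin-negative endothelial cells, for named arterial, transcription factor, venous and lymphatic, tip cell and pan-endothelial genes; colours mark genes called higher, lower or neither. Hey1, Dll4, Unc5b, Mecom and Esm1 lie right of 0 and Apln and Nrp2 left of it, while Cdh5, Pecam1, Kdr and Cldn5 lie within 2-fold.

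Lymphatic genes were sparse. Of 7 measured members 4 were called higher in the endothelium than in the other cells and 1 lower. Prox1, the factor that sets lymphatic fate, had 12 UMIs in 5 of the 138 cells, and Mmrn1, multimerin 1, had UMIs in 57. The 5 Prox1 cells all held Nrp2 UMIs and no Gja4 UMI, and 4 of the 5 held Nr2f2, 4 Flt4 and 4 Mmrn1. Over all 138 cells Nrp2 UMIs were found in 45, Gja4 in 28, Nr2f2 in 55 and Flt4 in 48. The 5 cells were also deeper, at 9400 to 18181 UMIs against a median of 7562 over the 138, and the part of depth in these counts was not tested. The cell with the most Prox1, at 6 UMIs, also held 6 of Flt4, 8 of Mmrn1 and 6 of Nrp2 among 18181 UMIs. Ccl21a and Reln, made by more mature lymphatic vessels, had 1 UMI each in the endothelium. Pdpn, podoplanin, had 4 UMIs and was called lower than in the other cells (0.230-fold). With so few UMIs no lymphatic set was separated.

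Of 10 measured tip cell genes 9 were called higher and 0 lower, and Esm1 had the highest ratio, at 51.8 CPM against 0.0825 CPM. Angpt2, which loosens vessels through TEK, was not called, at 3.45 CPM against 1.11 CPM. Of 12 measured Notch genes 7 were called higher and 1 lower. The receptors Notch1 and Notch4 were at 56.6 and 28.3 CPM against 5.30 and 3.22 CPM, and Nrarp, a Notch target and feedback inhibitor, at 133 CPM against 7.76 CPM. Among 14 BMP and TGF-beta genes 4 were called higher, namely Eng, Acvrl1, Tgfbr2 and Tgfb1, and 5 lower, namely Smad6, Id1, Id2, Bmp2 and Bmp4. Id1 was at 57.3 CPM against 124 CPM, and Bmp2 had no UMI in the endothelium. Of 14 basement membrane genes 12 were called higher and 0 lower. Col15a1, a collagen of the vessel basement membrane, had the largest ratio among them, at 215 CPM against 1.26 CPM, and Col4a1 and Col4a2 were at 285 and 253 CPM against 22.6 and 21.4 CPM. Of 9 measured caveolar and scavenging genes 8 were called higher, with Cav1 at 87.7 CPM against 0.908 CPM and Stab1 at 71.8 CPM against 0.413 CPM, while Fabp5 was lower. Sdpr, which encodes cavin-2, was called higher over the 162 cells at 16.6 CPM against 5.84 CPM, but was at 3.29 CPM in the 138 cells without blood UMIs and at 85.7 CPM in the 24 with them.

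Outside the lists, the 15 highest ratios among genes with at least 100 endothelial UMIs were those of Gimap1, Klhl4, Madcam1, Srgn, Nrros, Gmfg, Tmem255a, Mfng, Rac2, Ctla2a, Smagp, Thsd1, Gimap4, Rasgrp2 and Klhl6. Gimap1 and Gimap4, GTPases best known from lymphocytes, were at 119 and 131 CPM in the 138 cells without blood UMIs, against 0.413 and 1.01 CPM in the other E11.5 cells. Madcam1, an adhesion molecule for homing lymphocytes, was at 183 CPM against 0.681 CPM, and Rasgrp2, an activator of RAP1 known from platelets, at 197 CPM against 2.13 CPM. Rasgrp2, Gmfg and Ctla2a were higher still in the 24 cells with blood UMIs, at 416, 381 and 386 CPM. In the 138 cells Gmfg and Ctla2a were at 109 and 151 CPM. Srgn, the granule proteoglycan serglycin, and Rac2, a GTPase of blood cells, were low in the 138. They were at 420 and 454 CPM in the 24 cells but 11.5 and 5.76 CPM in the 138. The 10 lowest were Cdo1, Gpc3, Cited1, Prrx2, Dlk1, Mab21l2, Lix1, Lpar1, Capn6 and Ptn. Gpc3, a glypican of embryonic mesenchyme, was at 28.3 CPM against 305 CPM. All 10 listed mesenchymal genes and 6 of 8 epithelial genes were called lower, and the 10 mesenchymal genes summed to 258 CPM against 1512 CPM. With mesenchyme alone as the other cells, all 10 mesenchymal genes were again called lower, but none of 6 measured epithelial genes was. Over all 12909 genes measured in that contrast, 11.5% were called higher and 10.6% lower. Of 9 measured mural genes, which mark pericytes and smooth muscle, 4 were called lower (2 of 8 against mesenchyme alone) and Abcc9 alone higher (11 UMIs), while Rgs5 had 1 UMI and Cspg4 none. None of the 12 proliferation genes was called in either direction, and 53.1% of the endothelial cells (45.1 to 61.0%) were placed in S or G2M against 66.6% of the other cells (65.5 to 67.7%). By class this share was 68.3% in mesenchyme, 51.9% in epithelium, 52.6% in erythroid cells, 78.8% in muscle and 80.8% in glia.

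The endothelium of both stages was then compared, with E11.5 over E13.5. Of 8586 measured genes 6.83% were called higher at E11.5 and 4.06% lower. Stage, library and protease concentration cannot be told apart. The E13.5 cells were also kept down to lower depth (507 UMIs in the shallowest endothelial cell, against 2374 at E11.5), and Xist, transcribed from the inactive X of females, had no UMI in the 162 E11.5 cells and 323 UMIs, in 32 of 137 cells, at E13.5. Among genes with at least 50 UMIs in both together and 50 CPM in the higher stage, the 8 highest ratios at E11.5 were those of genes high in the 24 cells with blood UMIs: Ppbp, Tyrobp, C1qc, C1qb, Rgs18, Pf4, Gp1bb and Rac2. The limit of 3 macrophage UMIs was reached by 23 endothelial cells of E11.5 against 1 of E13.5, and that of 3 megakaryocyte UMIs by 7 against 4. The E13.5 macrophages formed a cluster of their own, as given above. Without the 24 and 5 cells with blood UMIs, 5.47% of 8183 genes were called higher and 4% lower, and the values that follow are from these 138 and 132 cells.

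Of 25 pan-endothelial genes 0 were called higher and 1 lower, and their median log2 ratio was -0.44, against 0.11 over all genes. Clec14a, a C-type lectin of vessels, was that gene, at 45.3 CPM at E11.5 against 244 CPM at E13.5 (0.186-fold, 0.137 to 0.248). Of 10 measured caveolar and scavenging genes 5 were called lower at E11.5 and 0 higher, with Cav1 at 104 CPM against 477 CPM and Gpihbp1, which carries lipoprotein lipase across capillaries, at 30.5 CPM against 181 CPM. Sdpr was at 3.29 CPM against 147 CPM. In the matrix, Sparc and Sparcl1 were at 634 and 153 CPM against 1718 and 433 CPM. Col4a1 and Col4a2 stayed within 2-fold.

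Ccl21a, the chemokine of lymphatic endothelium, had the lowest ratio, at 0.823 CPM at E11.5 against 1256 CPM at E13.5, from 1 UMI and 1779 UMIs over all endothelial cells of each stage. Of 6 measured lymphatic genes 2 were called lower at E11.5, Ccl21a and Pdpn, and 0 higher. Prox1 (9.88 against 15.5 CPM), Flt4 (59.3 against 60.7 CPM) and Mmrn1 (78.2 against 98.9 CPM) were not called. Meox1 and Meox2, homeobox factors, were at 0.823 and 5.76 CPM against 50.1 and 53.0 CPM, and Igfbp7, a matrix protein of mature vessels, was at 24.7 CPM against 368 CPM. Ahr, the aryl hydrocarbon receptor, was at 7.41 CPM against 59.3 CPM. Nrp2 was at 58.5 CPM against 141 CPM (0.414-fold, 0.311 to 0.545), and Id1 at 60.9 CPM against 221 CPM.

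Of 10 measured arterial genes 1 was called higher at E11.5 and 0 lower: Hey1 was at 42.0 CPM at E11.5 against 11.3 CPM at E13.5 (3.72-fold, 2.08 to 6.98). Clec1b was at 50.2 CPM against 4.24 CPM (11.9-fold, 5.14 to 33.6), and Rrm2, a subunit of ribonucleotide reductase, at 403 CPM against 114 CPM. Of 12 measured proliferation genes Rrm2 alone was called. Over all endothelial cells, 53.1% at E11.5 and 52.6% at E13.5 were placed in S or G2M. Of 7 measured mesenchymal genes 5 were called higher, among them Prrx1 at 61.7 CPM against 13.4 CPM, and Ptn, which the E11.5 mesenchyme held at 1524 CPM, was at 198 CPM against 31.8 CPM. The part of free RNA from other cells in these ratios was not tested. None of 9 measured tip cell genes was called in either direction.

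**Figure D5:**
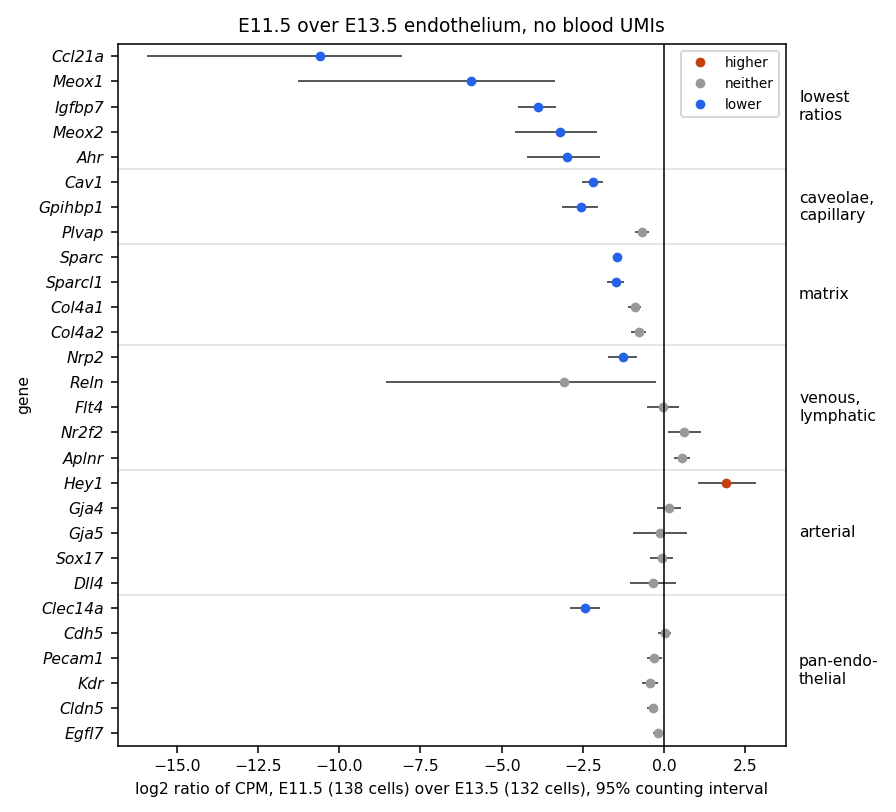
Ratio of CPM (log2, with 95% counting intervals) of the 138 E11.5 over the 132 E13.5 endothelial cells without blood UMIs; colours mark genes called higher, lower or neither. Of the genes plotted, Ccl21a, Meox1 and Igfbp7 lie farthest left and Hey1 is the one called higher, while Cdh5, Sox17, Gja4 and Gja5 lie close to 0.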

How the data were processed

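For each of 2 libraries the authors deposited a matrix of raw UMI counts and a table of cell annotations. That deposited table gives the mitochondrial fraction of UMIs and cell cycle scores beside cluster, lineage and phase names, per the file headers. The submitters' processing notes list Cell Ranger 2.0.0, Seurat 2.3.4 and the build mm10 without a role or order. Which cells had been filtered out is not given in the sources used here. Cells came from the lineage column. UMIs were summed per class and scaled to CPM. Ratios have exact conditional binomial intervals, shares Clopper-Pearson intervals. Where 1 group had no count, a floor of 3 counts over the group stood in. Cells were thinned to 2000 UMIs without replacement. E11.5 cluster 17 (glial genes) was kept out of the mesenchyme.

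The members and the 31 gene lists (308 genes, 284 in the E11.5 table) were chosen with earlier results of these data known. The genes named outside them follow the rank rules given with them: the 15 highest and 10 lowest ratios (at least 100 UMIs, or 100 CPM in other cells) and 8 each way between stages (at least 50 UMIs in both together and 50 CPM in the higher stage), without haemoglobin, mitochondrial, ribosomal and predicted genes, Xist, Tsix and Y-linked marker genes (other X-linked genes were kept). In the connexin split, and for Ptn between stages, genes outside the lists were chosen after their values were seen. Bmx, Lyve1 and Stab2 were not analysed here at E11.5. Coordinates are GENCODE's on GRCm38, matched by symbol for 279 of 284 list genes. Tools were scipy 1.17.1, scanpy 1.11.5, matplotlib 3.10.9, pandas 2.3.3 and numpy 2.4.6 under Python 3.11.15, and the ratio code was tested on simulated counts. Scrublet marked 8 of 7099 cells (0.113%), and this call was not used: doublets were kept, and the 5% highest scores left out in an alternative.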

Additional observations from a re-analysis of the deposited data

How the results depend on the processing

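No paired analysis was possible because each stage is 1 library, and no replicate could be left out. Alternatives to the main values were no cells with blood UMIs, mesenchyme as the other cells, size factors, no globins, no low-count filter, a 3-fold limit, the 5% highest Scrublet scores left out and cells weighted equally. The numbers called higher stayed within 1.5 times the main count: 25 of 25 pan-endothelial genes in every setting, 7 to 10 arterial (9), 3 to 4 venous (4) and 3 to 4 lymphatic (4). Without the cells holding blood UMIs the endothelial share was 1.94% in place of 2.28%, and the log2 ratios of Vwf (-0.07) and Sdpr (-0.83) changed sign. Cells with macrophage UMIs numbered 18 to 23, and cells with megakaryocyte UMIs 4 to 8, with 4 in place of 7 once cells were thinned to 2000 UMIs. Genes called between the stages numbered 935, and 775 to 940 in the alternatives. Among these alternatives was a set of 105 E13.5 cells with no Xist UMI, chosen after seeing the data. On the log2 scale, size factors shifted the median stage ratio by -0.12. Dropping globins moved the median log2 ratio over other cells from 0.04 to -0.07. In the connexin split 5 arterial genes were called higher in each setting, also with 2 UMIs as the limit (21 cells). Scrublet's highest 5% held 21 of the 162 cells and 2 of the 24 with blood UMIs. The part of depth in the lymphatic and Prox1 counts was not tested.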

Other observations

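A few E11.5 cells outside the endothelial name held UMIs of its genes or of the blood markers. A mesenchymal cell had 24 pan-endothelial UMIs beside 8 UMIs of Prrx1, a mesenchymal homeobox gene, among 16847 UMIs. Another mesenchymal cell had 13 megakaryocyte class UMIs, 20 UMIs of Pf4 and 7 of Prrx1. An epithelial cell had 30 macrophage class UMIs and 5 UMIs of Krt14, a basal keratin. Whether these were doublets was not tested.

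Within the endothelium without blood UMIs, haemoglobin UMIs ran from 26 to 5883 per cell with a median of 91, and the cell at the top stood far above the 1508 UMIs of the highest mesenchymal cell. Kit, the stem cell factor receptor, was at 10.7 CPM in the 138 cells against 2.21 CPM in the other cells, while Runx1 had UMIs in 2 of the 138 cells and Myb, Gfi1b and Ptprc in none, all of them genes of blood progenitors.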
